A study of Mus musculus with 3 samples.

Results

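Cytotoxic lymphocytes kill by releasing granules that hold granzymes and perforin, by showing death ligands on their surface, and by secreting interferon gamma. The 8 genes described here were chosen by their function, as symbols in the gene list of the files, and all 8 were found among the 34099 genes. They are the granzymes Gzma, Gzmb and Gzmk, perforin (Prf1), the granule membrane protein Nkg7, interferon gamma (Ifng), Fas ligand (Fasl) and the activating receptor NKG2D (Klrk1). Transcripts of single liver cells of mice were counted as UMIs (unique molecular identifiers) near their 3' ends on the 10x platform. Each mouse had 500 mg/kg of paracetamol (APAP), which in overdose kills hepatocytes, and 6 h later an injection. The injection was PBS in the first group, mesenchymal stromal cells (MSCs) in their native state in the second, and in the third MSCs engineered with bispecific polyvalent peptides. Livers were taken after 4 days, with 1 mouse and so 1 library in every group. All 3 mice had paracetamol, so no uninjured liver was compared. Strain, genotype, sex and age of the mice, the source of the MSCs and the targets of the peptides are not given in the sources used here. With 1 mouse per group there is no spread between animals and no test was made. Each 95% interval below covers counting error only, and a difference between libraries cannot be told apart from one between mice.

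Perforin opens pores in the membrane of a target cell, through which granzymes reach its inside. Granzyme B cleaves caspases and other substrates after aspartate and starts apoptosis, granzyme A is a tryptase that acts by other routes, and granzyme K is a tryptase typical of a subset of CD8 T cells. In liver, NK cells and the resident group 1 innate lymphoid cells (ILC1), CD8 T cells and NKT cells all carry parts of this equipment.

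The 3 granzyme promoters are shown because these genes share a function but, as described below, were found in different cells. The sequences are from RefSeq (GRCm38.p6) and give the 250 bases before the RefSeq start of each gene, 5′ to 3′ on the strand of the gene, which is the minus strand for all 3. They lie at chr13:113100982-113101231 for Gzma, chr14:56262335-56262584 for Gzmb and chr13:113180966-113181215 for Gzmk. Capitals mark matches to 4 motifs, searched on both strands: T-box (TCACACC), Runx (AACCACA), AP-1 (TGANTCA) and STAT (TTCNNNGAA).
Gzma: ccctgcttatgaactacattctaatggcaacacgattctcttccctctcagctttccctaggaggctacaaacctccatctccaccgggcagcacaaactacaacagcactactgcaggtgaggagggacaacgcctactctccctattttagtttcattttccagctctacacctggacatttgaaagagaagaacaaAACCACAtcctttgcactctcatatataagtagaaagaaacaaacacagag
Gzmb: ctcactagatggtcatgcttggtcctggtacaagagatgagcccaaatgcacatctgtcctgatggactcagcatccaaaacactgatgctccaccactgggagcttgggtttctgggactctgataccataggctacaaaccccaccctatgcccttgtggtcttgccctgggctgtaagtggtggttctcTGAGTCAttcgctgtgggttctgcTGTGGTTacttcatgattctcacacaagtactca
Gzmk: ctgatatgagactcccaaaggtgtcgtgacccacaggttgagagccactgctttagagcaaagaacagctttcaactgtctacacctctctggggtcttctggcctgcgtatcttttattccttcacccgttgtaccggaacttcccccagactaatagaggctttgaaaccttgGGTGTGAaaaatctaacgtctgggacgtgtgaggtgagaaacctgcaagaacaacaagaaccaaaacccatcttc
Gzma held 1 Runx match, from base -51 to -45 before the start. Gzmb held an AP-1 match from -58 to -52 and a Runx match on the opposite strand from -34 to -28. Gzmk held a T-box match on the opposite strand from -75 to -69 and no Runx match. Over all 8 genes the Runx letters were found in 3 promoters (Gzma, Gzmb and Klrk1), the T-box letters in 2 (Gzmk and Nkg7), the STAT letters in 2 (Nkg7 and Ifng) and the AP-1 letters in 1 (Gzmb). Over 32851 promoters of the same length the shares with a match were 4.40% for Runx, 3.33% for T-box, 7.02% for STAT and 6.75% for AP-1. The windows of Prf1 and Fasl held none of the 4. These are matches of letters, and binding was not measured. Positions count from the RefSeq start. In GENCODE M21 on the same assembly 1 Gzma transcript starts at that base, while the 1 listed start of Gzmb lies 74 bases further downstream. No listed Gzmk transcript starts at that base: they start 44 and 68 bases downstream, and 1 far upstream (at -44943).

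The libraries held from 62564254 to 84950721 UMIs, and 9534, 9175 and 9131 cells were kept for PBS, native MSC and engineered MSC, the order used for every triplet of values below. T and NK cells numbered 441, 521 and 1334, with medians of 3203, 5374 and 4095 UMIs per cell. They were sorted into classes by sub-clustering without the 8 genes or their companions, so that these did not set the clusters. The marker lists that named the clusters held none of the 8 genes, but held the companions Eomes, Itga1, Tyrobp, Klrc2 and Cxcr6. CD8-T-like cells (Cd8a at 258 to 343 CPM in their 4 clusters, where CPM is the summed UMIs of a gene scaled to a fixed total of UMIs of the cells) numbered 148, 172 and 309, or 1.55%, 1.87% and 3.38% of kept cells. CD4-T-like cells (Cd4 at 223 to 329 CPM) numbered 110, 67 and 308. They include the 15, 5 and 35 cells of cluster 14, which was led by the antigen presentation genes Cd74 and H2-Aa and by Mzb1 beside Foxp3 and Ctla4, and which had no name at 1.5 times the resolution. There were 11, 26 and 42 gamma-delta-T-like cells (Trdc at 937 CPM). All were in cluster 11, led by Il23r, Il1r1, Scart1, Blk and Il17a. Cluster 12 (5, 28 and 39 cells), led by Klra6, Klra1 and Klra7 with Trdc at 217 CPM and Cd3e at 320, stayed unnamed. The gamma-delta-T-like class thus does not cover all cells with Trdc. NK-or-ILC1-like cells numbered 47, 98 and 150, and their 2 clusters had Ncr1 at 526 and 697 CPM. NKT-like cells (Zbtb16 at 682 to 1288 CPM) were kept apart from the CD4 and CD8 classes and numbered 116, 26 and 435. Cluster 6, which held 58, 16 and 40 of them, was led by Il4 and Nr4a3 and also by the myeloid genes Ptgs2, Cxcl2, Gpnmb and Il1b. The remaining 9, 132 and 90 T or NK cells were in clusters left without a name. Among them, cluster 16 passed the Cd4 cut-off. It was left unnamed because the ILC2 markers Il1rl1 and Rora outnumbered the CD4 marker Tnfrsf4 among its leading genes. From 39 to 46 cell barcodes were shared between pairs of libraries, and at most 1 of them was in T and NK cells.

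The NK-or-ILC1-like cells of all 3 libraries had the highest Gzma, Gzmb, Prf1, Nkg7 and Klrk1 of the 5 classes. In CD8-T-like cells these genes were lower, and most of the Gzma UMIs came from 1 cluster that was larger in the MSC libraries. Of the 8 genes in CD8-T-like cells Gzmb differed most between libraries: it was 11.2 times as high in native MSC as in PBS and 5.43 times as high in engineered MSC as in PBS. In NK-or-ILC1-like cells it was 2.34 times as high in native MSC as in PBS, and in engineered MSC it was within counting error of PBS. Levels are compared between cells and libraries for 1 gene at a time, since 3' counting does not set different genes on 1 scale.

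**Figure D1:**
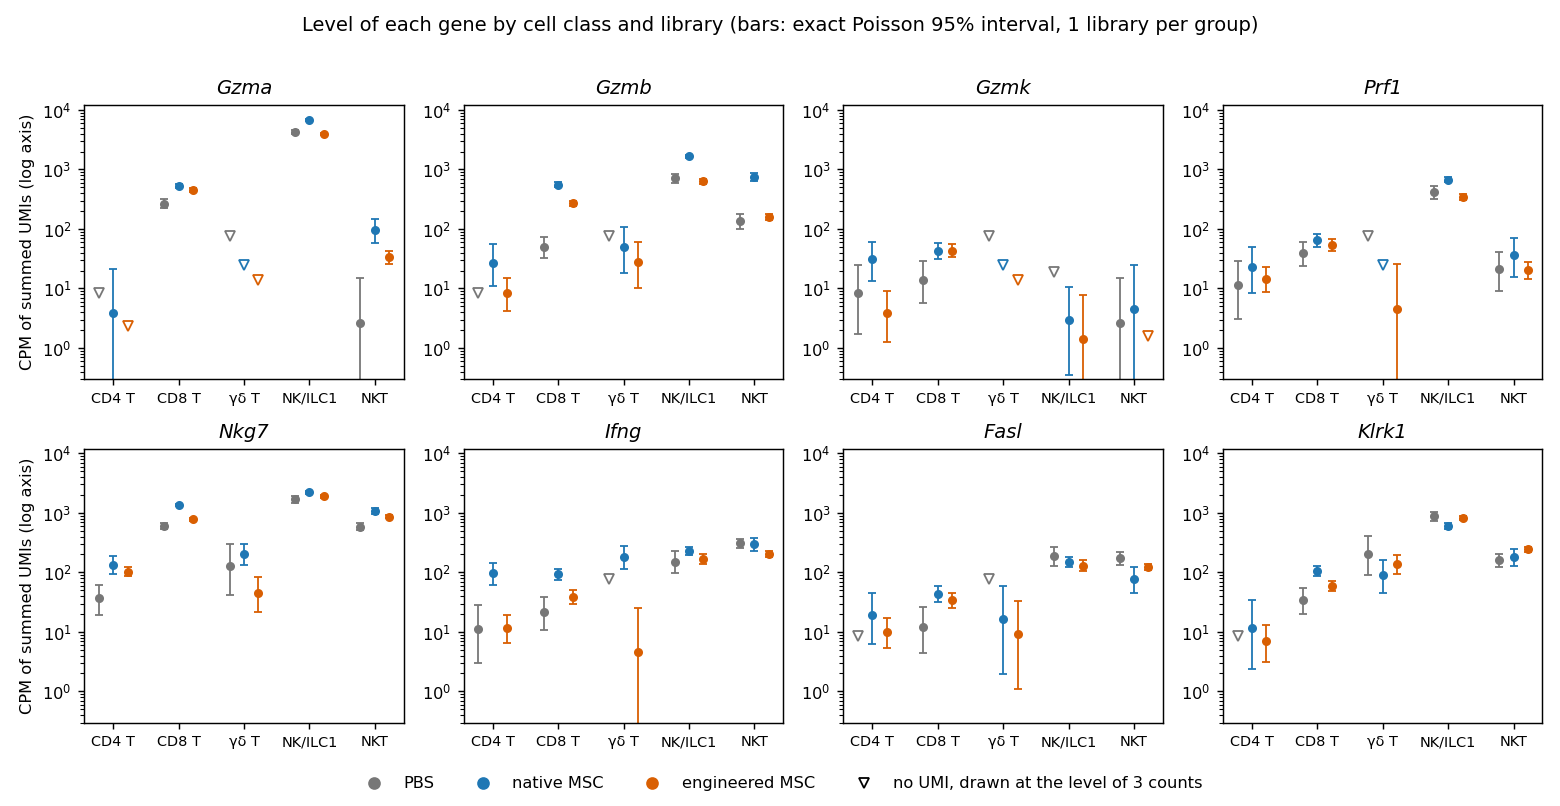
Level of each of the 8 genes in CPM (log axis) in the 5 classes of T and NK cells, with 1 colour per library and bars for the exact Poisson 95% interval. Open triangles stand for 0 UMIs and are drawn at the level of 3 counts. Among these classes NK-or-ILC1-like cells were highest for Gzma (4228, 6807 and 3944 CPM) and NKT-like cells for Ifng (308, 298 and 203 CPM).

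Gzma was above all a transcript of NK-or-ILC1-like cells. Its level there was 4228, 6807 and 3944 CPM, and in CD8-T-like cells 266, 527 and 449 CPM. The ratio between the classes was 15.9 in PBS, 12.9 in native MSC and 8.78 in engineered MSC. NKT-like cells had 2.64, 94.95 and 33.9 CPM, from 1, 21 and 63 UMIs. CD4-T-like cells held 0, 1 and 0 UMIs of Gzma and gamma-delta-T-like cells none. In the 42 gamma-delta-T-like cells of engineered MSC, a count of 0 allows a share of up to 7.14% of cells with a UMI (3 of 42), which is no limit on the cells that express the gene. Of all Gzma UMIs in a library, NK-or-ILC1-like cells held 80.6%, 75.4% and 70.0%.

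Between libraries, Gzma in NK-or-ILC1-like cells was 1.61 times as high in native MSC as in PBS (95% interval 1.484 to 1.748). In engineered MSC it was 0.933 times the PBS level (0.857 to 1.02), so that PBS and engineered MSC did not differ beyond counting error. The share of these cells with a Gzma UMI was 76.6%, 92.9% and 78.7%, and 74.5%, 89.8% and 71.1% after every cell was thinned to 1000 UMIs, which left out 0, 0 and 1 cells. In CD8-T-like cells the share was 5.41%, 22.7% and 10.0%, or 3.55%, 11.1% and 6.93% thinned, which left out 7, 1 and 6 cells. B-cell-like cells, which should lack these genes, had a UMI of Gzma in 0.169%, 0.867% and 0.311% of cells at medians of 2233, 2302.5 and 2789 UMIs. In CD8-T-like cells the Gzma ratio to PBS was 1.98 (1.63 to 2.41) in native MSC and 1.69 (1.40 to 2.04) in engineered MSC. The engineered MSC ratio was 0.675 with each cell counted alike, 0.677 without cells holding a B cell or macrophage UMI (native MSC 1.08) and 4.04 with the marker gate on each cell (native MSC 8.75), so that its direction depends on the setting. None of the 8 genes was found in more than 0.867% of B-cell-like cells of a library.

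Gzmb, the caspase-cleaving granzyme, was spread over more classes. NK-or-ILC1-like cells had 707 CPM (582 to 850) in PBS, 1656 (1561 to 1756) in native MSC and 627 (570 to 688) in engineered MSC. CD8-T-like cells had 49.7 (32.1 to 73.3), 555 (509 to 604) and 270 (245 to 297) CPM, from 25, 538 and 417 UMIs. The 3 intervals of the CD8-T-like cells lay apart, with PBS lowest and native MSC highest. NKT-like cells had 134, 737 and 160 CPM. Below NK-or-ILC1-like cells, the order was NKT-like over CD8-T-like in PBS and native MSC and CD8-T-like over NKT-like in engineered MSC, with intervals that did not overlap. In native MSC, however, most NKT-like Gzmb UMIs were in the cycling cluster 15, while the cycling cluster 5 was in neither class. In cluster 6, the largest NKT-like cluster of native MSC, Gzmb was below the CD8-T-like level. CD4-T-like cells held 0, 7 and 11 UMIs and gamma-delta-T-like cells 0, 6 and 6.

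The Gzmb ratio of NK-or-ILC1-like over CD8-T-like cells was 14.2 in PBS, 2.99 in native MSC and 2.32 in engineered MSC. In CD8-T-like cells, native MSC over PBS was 11.2 (7.48 to 17.4), engineered MSC over PBS 5.43 (3.63 to 8.49), and engineered MSC was 2.06-fold lower than native MSC (1.81 to 2.34). In NK-or-ILC1-like cells, native MSC over PBS was 2.34 (1.93 to 2.87), engineered MSC over PBS 0.887 (0.719 to 1.10), and engineered MSC was 2.64-fold lower than native MSC. In NKT-like cells, native MSC over PBS was 5.48 (3.98 to 7.66) and engineered MSC was 4.60-fold lower than native MSC, while engineered MSC over PBS was 1.19 (0.883 to 1.64). Of the 163 Gzmb UMIs of native MSC in NKT-like cells, 107 were in the 6 cells of the cycling cluster 15, and within cluster 6 native MSC over PBS was 2.62 (1.69 to 4.09). The share of CD8-T-like cells with a Gzmb UMI was 7.43%, 40.7% and 14.2%, and thinned 4.26%, 21.1% and 10.9%. In NK-or-ILC1-like cells it was 57.4%, 91.8% and 65.3%, and thinned 36.2%, 63.3% and 47.7%. In all 3 of these classes native MSC was therefore the library with the highest Gzmb.

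Gzmk had a pattern unlike the other granzymes. It was nearly absent from NK-or-ILC1-like cells, with 0, 2 and 1 UMIs, where Gzma and Gzmb were highest. Among the named T and NK classes it was mainly in CD8-T-like cells, at 13.9 (5.59 to 28.7), 43.3 (31.2 to 58.6) and 43.4 (33.6 to 55.1) CPM. The MSC libraries were both about 3.1 times as high as PBS (3.11, 1.39 to 8.22, and 3.12, 1.43 to 8.05), a ratio that rests on 7 UMIs in PBS. Engineered MSC over native MSC was 1.00 (0.671 to 1.51). The share of CD8-T-like cells with a Gzmk UMI was 2.03%, 13.4% and 11.7%, but thinned it was 2.13%, 2.92% and 3.30%, levels at which the libraries could not be told apart. CD4-T-like cells held 3, 8 and 5 UMIs of Gzmk, and the 8 of native MSC were in 1 cell.

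Outside T and NK cells, Gzmk UMIs were found in endothelium-like cells. These held 39 of the 57 Gzmk UMIs of PBS (68.4%), 5 of the 146 of native MSC (3.42%) and 48 of the 172 of engineered MSC (27.9%). The level was low, at 5.10, 3.58 and 3.91 CPM, and 3.01%, 2.54% and 2.22% of endothelium-like cells had a UMI, at medians of 6097.5, 9416.5 and 5765 UMIs per cell. B-cell-like cells had 0 UMIs of Gzmk in every library, though at lower depth. Whether these UMIs were made by endothelial cells was not tested.

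**Figure D2:**
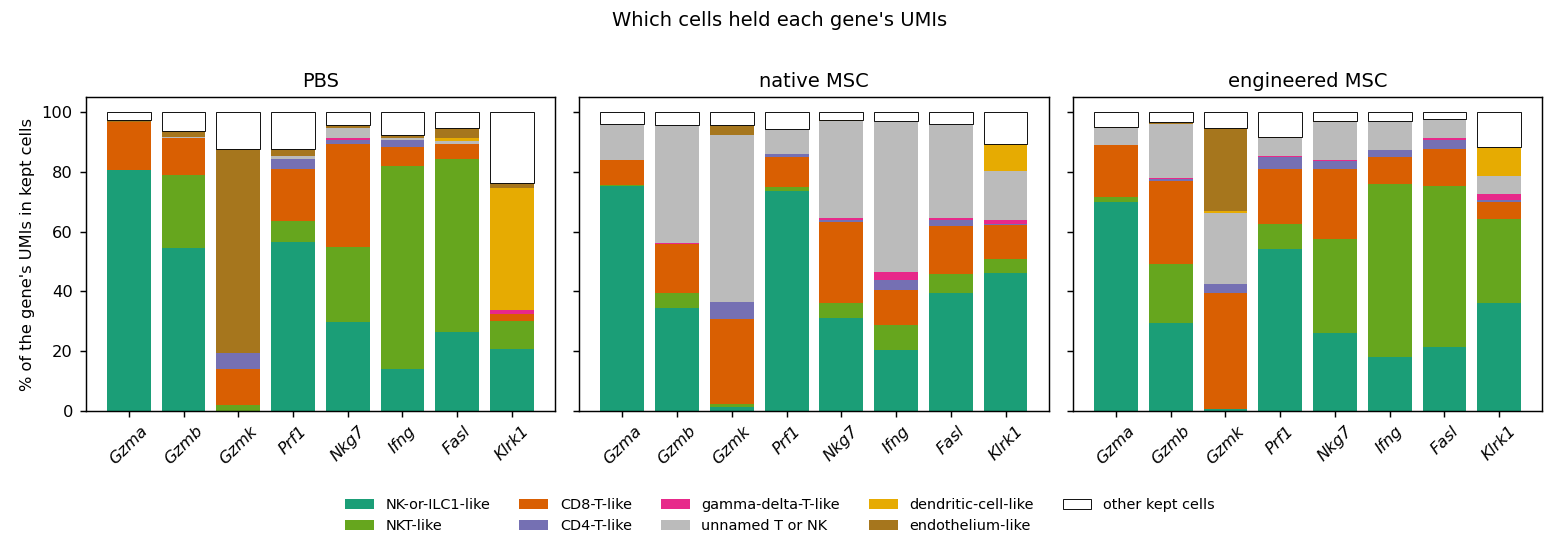
Percentage of the UMIs of each gene in a library that each class of cells held, as stacked bars with 1 panel per library and 1 bar per gene. NK-or-ILC1-like cells held most Gzma (80.6%, 75.4% and 70.0%), while Gzmk and Klrk1 had a part outside T and NK cells.

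Perforin, the pore-forming protein, followed the NK-or-ILC1-like cells. Its level there was 410 (317 to 523), 676 (616 to 741) and 348 (305 to 394) CPM, with native MSC above both others and PBS and engineered MSC overlapping. In CD8-T-like cells it was 39.7, 65.0 and 53.7 CPM, and native MSC over PBS was 1.64 (0.975 to 2.86), not beyond counting error. NKT-like cells had 21.1, 36.2 and 20.4 CPM, and CD4-T-like cells 11.2, 23.1 and 14.7 CPM from 4, 6 and 19 UMIs. Gamma-delta-T-like cells had 0, 0 and 1 UMIs. The NK-or-ILC1-like level of Prf1 was 19.4, 18.7 and 17.0 times the NKT-like one. The CD8-T-like and NKT-like intervals overlapped in PBS and native MSC.

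Nkg7, a protein of the granule membrane needed for granule release, was found in most cells of both the NK-or-ILC1-like and the CD8-T-like class. At least 93.6% of NK-or-ILC1-like cells in each library had a UMI, and so had 70.3%, 89.0% and 79.9% of CD8-T-like cells (thinned 37.6%, 62.0% and 41.9%). Its level was 1685, 2213 and 1906 CPM in NK-or-ILC1-like cells, 612, 1362 and 788 in CD8-T-like cells and 591, 1076 and 862 in NKT-like cells. The CD8-T-like and NKT-like intervals overlapped in PBS and engineered MSC and lay apart in native MSC. CD8-T-like cells of native MSC were 2.23 times as high as those of PBS (1.97 to 2.53), and those of engineered MSC 1.29 times (1.13 to 1.46). In CD4-T-like cells it was 36.4, 135 and 104 CPM, from 13, 35 and 134 UMIs, and 3.70 (1.91 to 7.63) and 2.84 (1.61 to 5.47) times as high in native and engineered MSC as in PBS.

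Interferon gamma activates macrophages and raises antigen presentation. Among the named T and NK classes Ifng was highest in NKT-like cells, at 308 (255 to 370), 298 (231 to 380) and 203 (183 to 225) CPM. An unnamed cluster of native MSC, described below, was higher. NK-or-ILC1-like cells had 151, 232 and 167 CPM. Their intervals overlapped those of NKT-like cells in native and engineered MSC and not in PBS. NKT-like cells held 68.0% and 57.8% of the Ifng UMIs of PBS and engineered MSC. In native MSC, where only 26 cells were NKT-like, they held 8.49%, and clusters without a name held 50.7%. In CD8-T-like cells Ifng was 21.9, 92.8 and 38.8 CPM, with native MSC over PBS at 4.25 (2.26 to 8.81) and engineered MSC 2.39-fold lower than native MSC (1.71 to 3.37).

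In the smaller classes Ifng rested on few cells. CD4-T-like cells of native MSC had 96.4 CPM against 11.2 in PBS and 11.6 in engineered MSC, but their 25 UMIs were in 5.97% of 67 cells. Gamma-delta-T-like cells of native MSC had 22 UMIs, in 7.69% of 26 cells, against 0 in the 11 cells of PBS and 1 in the 42 cells of engineered MSC. For the 1 UMI of engineered MSC, the ratio to native MSC was 0.0252 with an interval of 0.000611 to 0.156. With cells gated 1 by 1 on markers this ratio turned to 1.86.

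Fas ligand, which triggers death of cells that carry Fas, was at like levels in NK-or-ILC1-like cells (189, 151 and 129 CPM) and NKT-like cells (174, 76.9 and 124 CPM) of PBS and engineered MSC. In CD8-T-like cells it was 11.9, 43.3 and 34.3 CPM from 6, 42 and 53 UMIs. CD8-T-like cells of native MSC were 3.63 times as high as PBS (1.54 to 10.5) and those of engineered MSC 2.88 times (1.24 to 8.19). NKT-like cells went the other way in native MSC, 2.26-fold lower than PBS (1.31 to 4.12), from 17 UMIs against 66. NK-or-ILC1-like cells of engineered MSC were at 0.682 times PBS (0.447 to 1.07). CD4-T-like cells had 0, 5 and 13 UMIs.

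NKG2D binds stress-induced ligands of the Raet1, Ulbp1 and H60 families on damaged or infected cells. Klrk1 was at 877 (737 to 1036), 603 (546 to 664) and 814 (749 to 884) CPM in NK-or-ILC1-like cells. There it was lower in native MSC than in PBS (ratio 0.687, 0.565 to 0.839), while Gzma, Gzmb, Prf1 and Nkg7 were higher beyond counting error. From 89.4% to 95.3% of these cells had a UMI. NKT-like cells had 161, 181 and 243 CPM and CD8-T-like cells 33.8, 106 and 59.5 CPM. In CD8-T-like cells it was 3.14 times as high in native MSC as in PBS (1.87 to 5.61). In gamma-delta-T-like cells it was at 206 (89.0 to 406), 90.6 (45.3 to 162) and 137 (92.6 to 196) CPM from 8, 11 and 30 UMIs, with overlapping intervals, and 36.4%, 30.8% and 40.5% of these cells had a UMI (thinned 9.09%, 4.00% and 9.52%).

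Klrk1 had a part outside T and NK cells, which was the larger part in PBS. There the T and NK clusters held 225 of 668 Klrk1 UMIs (33.7%). Kupffer-cell-like cells of PBS held 56, cycling cells 32 and macrophage-like cells 27. Dendritic-cell-like cells held 273 of the 668 Klrk1 UMIs of PBS (40.9%), 79 of 888 in native MSC (8.90%) and 150 of 1595 in engineered MSC (9.40%). The level in dendritic-cell-like cells was 93.2 (82.5 to 105), 76.2 (60.3 to 94.97) and 94.2 (79.7 to 111) CPM, and the 3 intervals overlapped. A UMI was found in 36.6%, 32.2% and 45.9% of these cells, at medians of 7322, 9011.5 and 8374 UMIs, and in 8.17%, 2.65% and 11.05% after thinning. B-cell-like cells had one in 0.169%, 0 and 0.187%. For Gzma, Gzmb, Prf1, Nkg7, Ifng and Fasl, the T and NK clusters together held from 85.2% to 97.7% of the UMIs of a library.

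Counted over the 8 genes, differences past 2-fold (with at least 20 UMIs of the gene in the pair) were most numerous in CD8-T-like cells of native MSC against PBS. There 6 of 8 were higher (Gzmb, Gzmk, Nkg7, Ifng, Fasl and Klrk1) and none lower, where 6.82% of 7432 genes were higher and 6.32% lower. For engineered MSC against PBS 3 of 8 were higher (Gzmb, Gzmk and Fasl) and none lower, against 8.04% and 3.02% of 8484 genes. For engineered against native MSC 2 of 8 were lower (Gzmb and Ifng) and none higher, against 4.78% and 9.52% of 8962 genes. The median log2 ratio of the 8 genes was 1.65, 0.82 and -0.56 in these 3 pairs, where that of all genes was -0.07, 0.03 and 0.13. The 3 pairs share libraries and are not independent.

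In NK-or-ILC1-like cells 7 genes had enough UMIs. None passed 2-fold for engineered MSC against PBS, where 11.9% of 6387 genes were higher and 4.79% lower. Only Gzmb passed for native MSC against PBS (higher, background 13.8% higher and 12.6% lower) and for engineered against native MSC (lower, background 4.86% lower and 10.1% higher). The median log2 ratio was -0.11 for engineered MSC against PBS and 0.62 for native MSC against PBS, beside -0.01 and -0.13 over all genes.

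The other classes had fewer testable genes. In CD4-T-like cells 1 of 2 was higher in engineered MSC than in PBS (Nkg7, background 8.79% higher and 3.52% lower), 2 of 2 in native MSC than in PBS (Nkg7 and Ifng, background 3.81% higher and 7.24% lower), and 1 of 3 was lower in engineered than in native MSC (Ifng, background 3.81% lower and 12.8% higher). Without cells that had a B cell or macrophage UMI, 37, 41 and 227 CD4-T-like cells were left and Nkg7 was the 1 gene with enough UMIs. It was then 1.89 and 1.55 times as high in native and engineered MSC as in PBS, under 2-fold in both, and Ifng was not compared. In gamma-delta-T-like cells 2 of 3 were lower in engineered than in native MSC (Nkg7 and Ifng, background 4.07% lower and 9.86% higher), and with cells gated 1 by 1 on markers the Nkg7 ratio also turned, to 1.03. In NKT-like cells 1 of 7 was higher in engineered MSC than in PBS (Gzma, background 11.7% higher and 4.12% lower), and 2 of 6 were higher (Gzma and Gzmb, background 10.4%) and 1 lower (Fasl, background 18.5%) in native MSC than in PBS. The Gzma ratios to PBS were 12.8 (2.22 to 515) and 36.0 (5.79 to 1489) and rest on 1 UMI in PBS. In native MSC 20 of the 21 Gzma UMIs were in 1 cell of cluster 15, whose Mki67 was 971 CPM. For engineered against native MSC 2 of 7 were lower there (Gzma and Gzmb, background 7.7% lower and 23.7% higher).

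**Figure D3:**
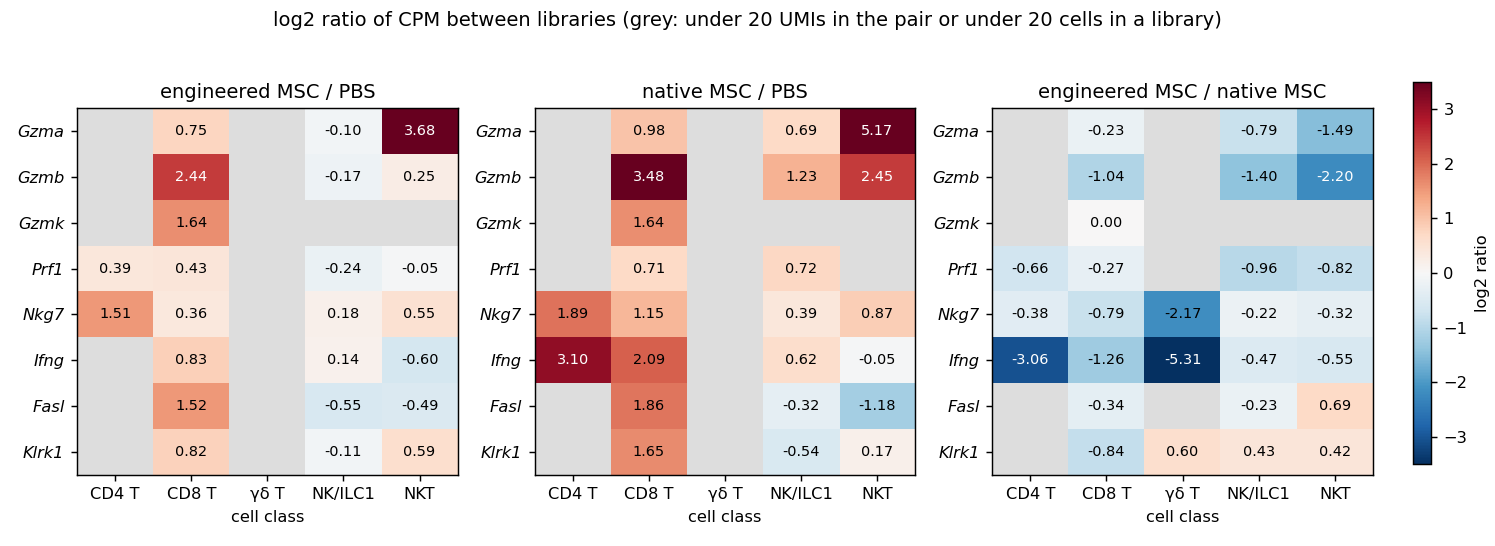
Log2 ratio of CPM for each gene (rows) and class (columns), in 3 panels for the pairs of libraries, with red for higher and blue for lower in the library named first and the value in each square. Grey squares had under 20 UMIs of the gene in the pair or under 20 cells in a library. In CD8-T-like cells the highest value was that of Gzmb in native MSC over PBS (11.2-fold).

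Transcripts of other cells also differed between the libraries within these classes. The summed level of 6 neutrophil and red cell genes in CD8-T-like cells was 53.7, 14068 and 251.1 CPM, and in NK-or-ILC1-like cells 37.9, 6340 and 95.04 CPM. In native MSC none of the 6 was at 0 in either class. That of 10 hepatocyte genes was 382, 1095 and 6017 CPM in CD8-T-like cells and 353, 848 and 6409 CPM in NK-or-ILC1-like cells, with none of the 10 at 0. That of 9 macrophage markers was highest in PBS, at 803, 402 and 127 CPM in CD8-T-like cells and 801, 378 and 150 CPM in NK-or-ILC1-like cells, and at 923, 321 and 167 CPM in NKT-like cells. With the watch-list, mitochondrial and ribosomal protein genes left out of the total, Gzmb of CD8-T-like cells was 11.6 times as high in native MSC as in PBS, and without cells holding a B cell or macrophage UMI 12.2 times. With doublets kept it was 23.0 times and with the marker gate on each cell 38.4 times as high. Both settings changed which cells were counted. With doublets kept, a cycling cluster of 1, 79 and 56 cells was named CD8-T-like. The gate was applied to all T and NK cells, those of unnamed clusters included.

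The classes were not made of the same clusters in each library. Most CD8-T-like cells of PBS were in clusters 2 (76 cells) and 9 (42), those of native MSC in clusters 4 (60), 2 (52) and 9 (45), and those of engineered MSC in clusters 2 (167), 4 (76) and 10 (53). Cluster 2, led by Ccr7, the receptor that guides naive cells to lymph nodes, and Dapl1, held almost no granzyme, with Gzma at 0, 4.08 and 3.84 CPM and Gzmb at 14.2, 0 and 2.56 CPM. Cluster 4, led by Gzmk, Ccl5, Gzmm and Cx3cr1, held 107 of 134, 493 of 511 and 683 of 694 Gzma UMIs of this class in PBS, native MSC and engineered MSC. Of the class's Gzmb UMIs it held 10 of 25 in PBS, 455 of 538 in native MSC and 410 of 417 in engineered MSC, so that in PBS most Gzmb UMIs lay in other clusters. It made up 7.43% (3.77% to 12.9%), 34.9% (27.8% to 42.5%) and 24.6% (19.9% to 29.8%) of CD8-T-like cells, so that the PBS interval lay below both others.

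Within cluster 4, Gzma was 2321, 1485 and 1592 CPM and Gzmb 217, 1370 and 956 CPM. The order of the libraries for Gzma was thus turned round against the class as a whole, while Gzmb was still lowest in PBS. Gzmk was 152, 124 and 156 CPM and Prf1 130, 93.4 and 100 CPM. PBS had only 11 cells in this cluster, too few for a count against PBS. Between engineered and native MSC 0 of 8 genes passed 2-fold in cluster 4, where 8.25% of 5672 genes were higher and 2.86% lower. Ifng was 0, 199 and 117 CPM there.

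The NK-or-ILC1-like class had 2 clusters. Cluster 3 (Eomes at 312 CPM, Itga1 at 23.8) held 31, 94 and 100 cells, or 65.96%, 95.9% and 66.7% of the class. Cluster 13, led by Cd200r2, Gzmc, Cd200r1 and Xcl1, had Itga1 at 355 CPM and Eomes at 27.8 and held 16, 4 and 50 cells. Cd3e was 182 CPM in cluster 13 and 1.64 in cluster 3. Gzma was 5333, 7050 and 5287 CPM in cluster 3 and 1824, 1290 and 1421 in cluster 13. Prf1 was 534, 697 and 496 CPM in cluster 3 and 140, 209 and 69.4 in cluster 13. Both were therefore lower in cluster 13 in every library. Gzmb was 617, 1654 and 417 CPM in cluster 3 and 902, 1708 and 1021 in cluster 13. In engineered MSC it was lower in cluster 3 than in cluster 13 (ratio 0.409, 0.337 to 0.495), while in PBS (0.684, 0.462 to 1.02) and native MSC (0.968, 0.727 to 1.32) the clusters did not differ beyond counting error.

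Within cluster 3 alone, Gzmb was 2.68 times as high in native MSC as in PBS (2.09 to 3.48) and 3.96-fold lower in engineered than in native MSC (3.40 to 4.64). In engineered MSC it was 0.676 times PBS (0.510 to 0.907). Gzma and Prf1 of native MSC were 1.32 (1.21 to 1.44) and 1.30 (0.990 to 1.74) times PBS there, less than in the whole class. Klrk1 was 949, 589 and 872 CPM. Gzmb was again the only gene past 2-fold, for native MSC against PBS (background 15.4% higher and 13.8% lower) and for engineered against native MSC (background 5.43% lower and 8.57% higher). None of the 7 passed for engineered MSC against PBS in cluster 3 (background 11.8% higher and 5.81% lower).

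The NKT-like class also differed in its clusters. Cluster 6 held 50.0%, 61.5% and 9.20% of it, cluster 1 33.6%, 15.4% and 60.5%, and the cycling cluster 15 held 2, 6 and 37 cells. Within cluster 6 Gzmb was 189, 495 and 209 CPM and Ifng 412, 337 and 299.8 CPM, and Fasl of native MSC was 0.475 times PBS (0.213 to 0.961). In cluster 1 Gzmb was 76.5 CPM in PBS and 166 in engineered MSC, and native MSC had 4 cells.

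**Figure D4:**
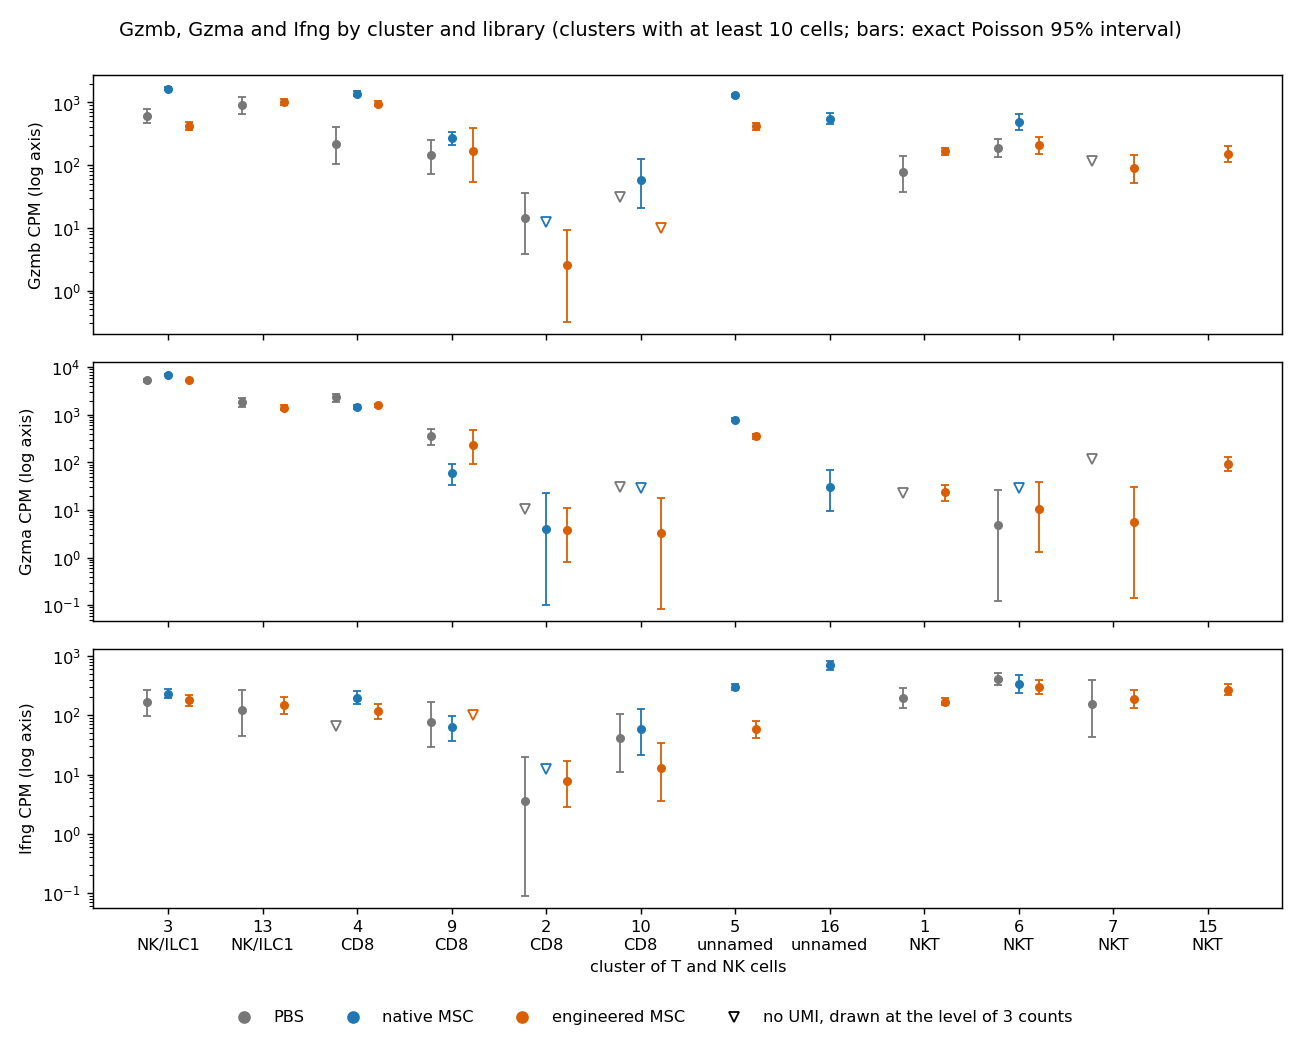
CPM of Gzmb, Gzma and Ifng (log axes) in the T and NK clusters, with 1 colour per library, bars for the exact Poisson 95% interval, open triangles for 0 UMIs at the level of 3 counts, and no point where a library had under 10 cells. Cluster 4 of the CD8-T-like class stands above cluster 2 for Gzmb in each library (217, 1370 and 956 CPM against 14.2, 0 and 2.56).

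Some of the UMIs lay in clusters that stayed unnamed. Cluster 5, of cycling cells (Mki67 and Top2a lead it, Cd3e at 312 CPM, Cd8a at 173 and Cd4 at 91.8), held 1, 71 and 48 cells, of a median depth of 11408 UMIs. It held 35.7% of the Gzmb UMIs of native MSC and 17.5% of those of engineered MSC, 53.4% and 23.8% of the Gzmk UMIs, and 34.6% of the Ifng UMIs of native MSC. Its Gzmb level was 1300 CPM in native and 414 in engineered MSC. Cluster 16 (Cd3e at 339 CPM, Cd4 at 302, led by Furin, Tnfrsf4, Il1rl1 and Rora) held 33 cells of native MSC and 3 of each other library. In native MSC Ifng was 692 CPM there and found in 78.8% of cells, with Gzmb at 554 CPM and Nkg7 at 1360 CPM. Counted as CD4-T-like, this cluster would raise the CD4 counts for native MSC from 2 to 4 genes higher than in PBS.

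Several of Gzma, Gzmb, Gzmk and Prf1 were often found in the same cell. At least 3 of these 4 were found in 40.4%, 76.5% and 40.7% of NK-or-ILC1-like cells and 3.38%, 15.7% and 8.09% of CD8-T-like cells. After thinning these shares were 14.9%, 33.7% and 14.1%, and 0.709%, 1.75% and 1.32%. At least 1 of the 4 was found in 76.6%, 93.9% and 83.2% of thinned NK-or-ILC1-like cells and 9.22%, 28.1% and 17.8% of thinned CD8-T-like cells. No CD4-T-like or gamma-delta-T-like cell had 3. Of the NK-or-ILC1-like cells with Prf1, 96.7%, 94.2% and 91.0% also had Gzma. Of the CD8-T-like cells with Gzma, 75.0%, 87.2% and 74.2% also had Gzmb (6 of 8, 34 of 39 and 23 of 31 cells). Of those with Gzmk, 2 of 3, 20 of 23 and 26 of 36 cells had Gzmb.

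**Figure D5:**
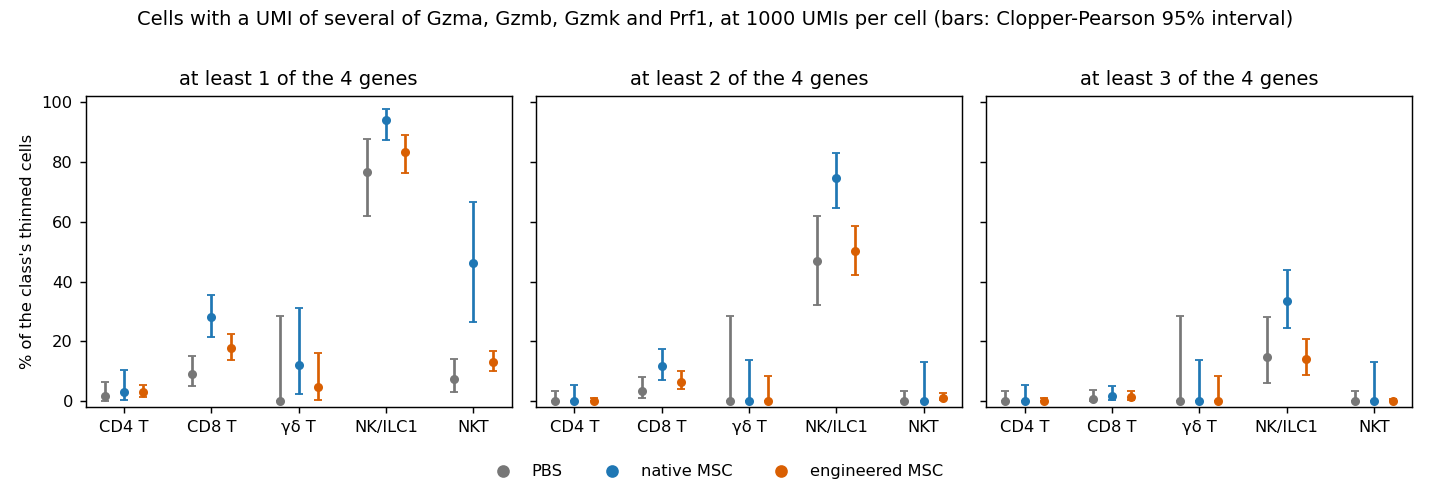
Percentage of cells in each class with at least 1, 2 or 3 of Gzma, Gzmb, Gzmk and Prf1, at 1000 UMIs per cell, with 1 colour per library and bars for the Clopper-Pearson 95% interval. NK-or-ILC1-like cells with at least 3 were 14.9%, 33.7% and 14.1%.

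Companion genes of the cytotoxic programme were read in the same way, against the same backgrounds. In CD8-T-like cells of native MSC against PBS, where 6.82% of all genes were higher and 6.32% lower, 3 of 9 genes of granule processing and storage were higher and none lower: Serpinb9, the inhibitor of granzyme B (111 against 15.9 CPM, ratio 7.01), Serpinb6b (4.37) and the cathepsin inhibitor Cst7 (4.00). Of 8 death ligands and cytokines 4 were higher, among them Ccl4 (5.03), Lta (3.503) and Ccl5 (3.09). Of 9 cytokine receptors 3 were higher, Il12rb2 (5.65), Il12rb1 (3.46) and Il18rap (3.09), and of 11 NK receptors 5 were higher and 1 lower, among them Klrc1 (6.46) and Cd160 (4.56). Of 13 transcription factors 2 were higher, Zeb2 (2.67) and Bhlhe40 (2.38), and 2 lower, among them Bach2, a factor of naive and memory cells (2.25-fold lower). Gzmm, the 1 other granzyme with enough UMIs, was 59.8 against 11.9 CPM (5.02). Of 8 genes of granule release 1 was higher, Stx11, whose ratio of 10.4 (1.66 to 430) rests on 1 UMI in PBS. Of 5 residency and exhaustion genes 2 were higher (Cxcr6, 2.64, and Entpd1, 2.01) and Itgae lower (2.39-fold). Itgae was also a leading gene of cluster 2, the one led by Ccr7 and Dapl1, which made up 51.4% of CD8-T-like cells in PBS and 30.2% in native MSC.

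In CD8-T-like cells of engineered MSC against PBS (background 8.04% higher and 3.02% lower) 3 of 9 processing genes were higher (Cst7, Serpinb9 and Serpinb6b, ratios 2.28, 2.16 and 2.12), as were 2 of 7 ligands and cytokines (Ccl5, 2.55, and Ccl4, 2.35), 1 of 13 transcription factors (Zeb2, 3.05) and 0 of 9 cytokine receptors. Of 10 NK receptors 2 were higher (Klrc1, 3.73, and Slamf7, 2.96) and Tyrobp was 5.43-fold lower, and Gzmm was 2.01 times as high (0.840 to 5.82). The summed macrophage markers of CD8-T-like cells also fell, at 803, 402 and 127 CPM, and whether Tyrobp came with such transcripts was not tested. Against native MSC the background was 9.52% higher and 4.78% lower. There the CD8-T-like cells of engineered MSC were lower in 2 of 9 processing genes (Serpinb9, 3.25-fold, and Serpinb6b, 2.06-fold). They were also lower in 2 of 8 ligands and cytokines (Lta, 7.17-fold, and Ccl4, 2.14-fold). So were 2 of 10 cytokine receptors (Il12rb2, 3.19-fold, and Il12rb1, 2.12-fold) and 3 of 11 NK receptors (Klrg1, Cd160 and Tyrobp) in these cells. The CD8-T-like cells of engineered MSC were higher in 4 of 9 residency and exhaustion genes, among them Itga1 and Itgae (both 3.14) and Tox (2.08). Cluster 2, of which Itgae was a leading gene, made up 54.0% of these cells in engineered MSC and 30.2% in native MSC. Whether Itgae followed this share was not tested. In NK-or-ILC1-like cells the processing list had 0 of 9 past 2-fold for both MSC libraries against PBS. Of 13 transcription factors 4 were lower in native MSC than in PBS, where 12.6% of all genes were lower, among them Bach2 (3.28-fold), Zeb2 (2.53-fold) and Prdm1 (2.21-fold), and none in engineered MSC. Of 6 residency and exhaustion genes 4 were lower in native MSC than in PBS, among them Itga1, the marker of ILC1 (11.7-fold), and cluster 13 held 4 of its 98 cells. Serpinb9, at 353, 563 and 226 CPM in NK-or-ILC1-like cells, was 2.50-fold lower in engineered than in native MSC.

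Over the 50 combinations of class and library with at least 20 cells, the genes other than the 8 that were closest to each member in log2(CPM + 1) were named by Pearson's r. These points share libraries and depth, and the values are a description. For Gzma they included Eomes (0.894) and Klra9 (0.879), for Gzmb Cd160 (0.932), Il2rb (0.926) and Tbx21 (0.924), and for Prf1 1810006J02Rik (0.951), Samd3 (0.892) and Klrc2 (0.891). Il2rb and Tbx21 also led for Nkg7 (0.968 and 0.960, then Sh2d1a, 0.948), Ifng (0.960 and 0.957, then Gm33104, 0.952) and Fasl (0.954 and 0.952, then Gm33104, 0.937). Gzmk was closest to Dapl1 (0.783), Gm57004 (0.778) and Tdrp (0.761). Dapl1 and Tdrp were leading genes of the CD8-T-like cluster 2, which held 0 Gzmk UMIs in each library, against 7, 41 and 67 in cluster 4. The points pool these clusters, so these values do not place the genes in the same cells. Klrk1 was closest to Il12rb2 (0.909), Adgrg5 (0.860) and Clnk (0.855). The members themselves could be closer still, as Fasl (0.950) and Nkg7 (0.934) were to Gzmb. Among the members, Ifng and Fasl were closest (0.957) and Gzmk and Klrk1 furthest (0.215).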

How the data were processed

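Counts of UMIs per gene and barcode were deposited by the authors as filtered matrices, 1 per library, made with Cell Ranger 7.1.0 on GRCm39 per the submitters' processing notes. Cells had at least 200 genes and 500 UMIs and at most 20% mitochondrial UMIs. Doublets (Scrublet in scanpy 1.11.5) were removed at 0.8% per 1000 barcodes, 923, 1054 and 973 in all. Cells were clustered on 2000 variable genes, 30 components and 15 neighbours (Leiden, leidenalg 0.10.2, resolution 1), and T and NK clusters again on 1000 genes and 20 components (resolution 1.2), leaving out the 8 genes and their companion lists. No correction between libraries was made, and free RNA was not subtracted.

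Clusters were named from marker lists. The resolution of the second clustering and the cut-offs were set after the clusters were seen. The cut-offs were on Cd4, on the sum of Cd8a and Cd8b1, and on Zbtb16, Trdc and Ncr1. A difference from the study's own cell types may come from these rebuilt names. The injected MSCs were not looked for. UMIs were summed per class and library as CPM, with exact Poisson intervals for levels, exact conditional binomial intervals for ratios and Clopper-Pearson intervals for shares (scipy 1.17.1), all at 95%. A pair of libraries was compared with at least 20 cells in each. With 1 library per group no p-value is given. The calculation was tested on simulated data.

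The members, gene lists and rules were chosen with earlier results of these data known. All 8 members are named, and from a companion list up to 3 genes with the largest absolute log2 ratio. Alike genes needed at least 100 UMIs, and the 3 highest were taken. Of those, 1 for Gzma has no symbol in the files and is not named. Companion lists are given for the CD8-T-like and NK-or-ILC1-like classes. The ratios of 1 companion list are not reported here. Alternatives were a mitochondrial limit of 10%, at least 500 genes, doublets kept, a marker gate on each cell, each cell counted alike, totals without watch-list, mitochondrial and ribosomal protein genes, a resolution 1.5 times as high, at least 50 UMIs, thinning, and 2 chosen after seeing the data, which counted cluster 16 as CD4-T-like or left out cells with a B cell or macrophage UMI.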

Additional observations from a re-analysis of the deposited data

Results flagged for a closer look

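Fasl differed in direction between 2 classes of the same pair of libraries. It was 3.63 times as high in native MSC as in PBS in CD8-T-like cells (6 and 42 UMIs in PBS and native MSC) and at 0.442 of the PBS level in NKT-like cells (66 and 17 UMIs). The ratio lay between 2.33 and 7.35 in CD8-T-like cells and between 0.354 and 0.532 in NKT-like cells over the alternatives that gave a value. With 1 library per group the difference was not tested.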

How the results depend on the processing

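No paired analysis was possible because each group is 1 library. The marker gate on each cell moved most: it changed the count of genes past 2-fold from 1 to 2 (engineered MSC against PBS), from 1 to 5 (engineered against native MSC) and from 2 to 4 (native MSC against PBS) in CD4-T-like cells, from 3 to 6 in CD8-T-like cells of engineered MSC against PBS, and from 2 to 1 in gamma-delta-T-like cells of engineered against native MSC, where Ifng (1.86) and Nkg7 (1.03) turned direction. With at least 50 UMIs the counts for CD4-T-like cells of both pairs with native MSC and for gamma-delta-T-like cells became 0, since the genes called fell under that minimum and were no longer compared. Doublets kept gave 1 for CD4-T-like cells of native MSC against PBS. Of the alternatives chosen after seeing the data, cluster 16 counted as CD4-T-like gave 0, 4 and 4 in the CD4 order above, and leaving out cells with a B cell or macrophage UMI gave 0, 0 and 0 with Nkg7 the 1 gene compared in each, and 4 in place of 1 in NKT-like cells of engineered MSC against PBS. At 1.5 times the resolution 1 gene in place of 2 was lower in CD8-T-like cells of engineered against native MSC, since Gzmb stood at 0.501. Without watch-list, mitochondrial and ribosomal protein genes 2 in place of 1 (Gzmb and Prf1) were lower in NK-or-ILC1-like cells of engineered against native MSC. The 0 of 7 in NK-or-ILC1-like cells of engineered MSC against PBS held in each alternative that gave a value; without cells holding a B cell or macrophage UMI only 16 such cells were left in PBS and no value was made. The Gzmb ratio of native MSC over PBS in CD8-T-like cells lay between 8.38 (each cell counted alike) and 38.4 (marker gate), and with doublets kept it was 23.0. As shares of T and NK cells in place of all kept cells, in PBS, native MSC and engineered MSC, CD4-T-like cells were 24.9%, 12.9% and 23.1%, CD8-T-like cells 33.6%, 33.0% and 23.2%, gamma-delta-T-like cells 2.49%, 4.99% and 3.15%, and NK-or-ILC1-like cells 10.7%, 18.8% and 11.2%. Gzma of NKT-like cells had 0 UMIs in PBS with doublets kept and gave no ratio. With doublets kept CD8-T-like cells, which then included a cycling cluster, were 2.60% of kept cells in native MSC. Of 75 ratios, 75 stayed within the counting interval of the reported ratio with a mitochondrial limit of 10%, with at least 500 genes and at the higher resolution, 73 without watch-list genes, 71 with cluster 16 and 64 with each cell counted alike. With doublets kept 65 of 72 did, without cells holding a B cell or macrophage UMI 26 of 40, and with the marker gate 33 of 55. In gamma-delta-T-like cells of PBS, 11 cells limit every value.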

Other observations

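The receptors and targets of these effectors were read across classes without a comparison. Fas, the receptor of Fas ligand, was 47.0, 59.5 and 120 CPM in endothelium-like cells (PBS first, then native and engineered MSC), 159, 95.9 and 86.5 CPM in neutrophil-like cells, and 12, 15.98 and 15.3 CPM in hepatocyte-like cells. Ifngr1, a chain of the interferon gamma receptor, was 525, 547 and 481 CPM in monocyte-like cells and 24.7, 17.2 and 11.99 CPM in hepatocyte-like cells. In NK-or-ILC1-like cells Ifngr1 was 1104, 641 and 542 CPM. Raet1e, a ligand of NKG2D, was 40.4, 48.8 and 38.9 CPM in B-cell-like cells and 8, 7.62 and 4.68 CPM in hepatocyte-like cells. Ulbp1, another, was 28.1, 25.1 and 17.4 CPM in endothelium-like cells.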
